A study of Canis lupus familiaris with 25 samples.

Results

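Genes used by macrophages, dendritic cells, neutrophils and mast cells were followed in canine perianal tumors. They were given as a list of 46 gene symbols, chosen with earlier results of these data known, and 43 of them had a row of that name among the 24532 genes of the count table. LILRB4, TREM2 and ZBTB46 had none and were not analysed here. The members fell into 8 roles, namely macrophage surface and scavenger receptors, signaling and transcription, the phagocyte oxidase, pattern recognition, the handling of lipid, iron and heme, dendritic cell genes, neutrophil genes with the colony-stimulating factor receptors, and mast cell genes.

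The samples were archived formalin-fixed, paraffin-embedded (FFPE) tumors of pet dogs. Of these, 10 were hepatoid gland adenoma (HGA), a benign tumor of the perianal glands, 11 were primary apocrine gland anal sac adenocarcinoma (AGASAC), a malignant tumor, and 4 were sublumbal lymph node metastases of the dogs with AGASAC 1 to 4. HGA came from 5 female and 5 male dogs aged 8 to 14 years, of which 4 were neutered, and AGASAC from 5 female and 6 male dogs aged 8 to 12.5 years, of which 9 were neutered. The metastases came from 2 female and 2 male dogs aged 8 to 10 years, 3 of them neutered. The labels name no treatment, the tumors arose spontaneously and neighbouring tissue had been cut away by the authors before extraction, and no sample of normal gland or normal lymph node served as a control.

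Macrophages and neutrophils are phagocytes that recognise microbes and dead cells, take them up and destroy them with reactive oxygen and metal starvation. Dendritic cells carry antigen to lymph nodes and activate T cells, and mast cells store proteases and histamine in granules that they release through the IgE receptor. In solid tumors, macrophages are a common immune cell and their scavenger and lysosomal genes serve as markers. Several genes of these lists, HMOX1, GPNMB, SPP1 and CYBA among them, are also used by epithelial or stromal cells.

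RNA was read with QuantSeq 3′, which sequences each transcript near its 3′ end. Libraries held 1562347 to 6389555 counts on genes in HGA, 2581453 to 4218340 in AGASAC primary tumors and 2857541 to 3289546 in the metastases, and HGA 4 had the fewest. Levels are CPM, the count of a gene relative to the total of its library, scaled by TMM, and a library with 0 counts allows up to 3 counts, or 0.539 to 1.88 CPM depending on the library, for counting error only. Of 6 markers of HGA epithelium 5 were called higher in HGA than in the primary tumors, and all 6 of AGASAC epithelium were called lower. KRT14 and KRT19 separated these groups, with KRT14 at 2356 to 11830 CPM and KRT19 at 0 to 1.65 CPM in HGA against 0 to 9.22 CPM and 712 to 2156 CPM in the primary tumors. All other epithelial markers except PLIN2 separated these 2 groups without overlap as well. KRT79 was lowest at 39.7 CPM in HGA 10, with the other HGA reaching 2497 CPM. PLIN2, a lipid droplet protein on the HGA list, did not follow the label, with 114 to 668 CPM in HGA and 75.8 to 1813 CPM in the primary tumors (log2FC −0.93 ± 0.44, edgeR, adjusted p = 0.877). In such bulk samples, fewer cells of a type and less RNA per cell cannot be told apart.

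Most macrophage members were measurable and most granulocyte and mast cell members were scarce. In at least 50% of the libraries, over 3 counts were present for 32 of the 43 members, and 1 member, MARCO, a scavenger receptor of resident macrophages, had at most 3 counts in all 25. The map of member levels shows CYBA, LAPTM5, TYROBP, CD14 and VSIG4 in every library of every group, and MPO, CSF3R, HDC and TREM1 near 0 in most of them.

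**Figure D1:**
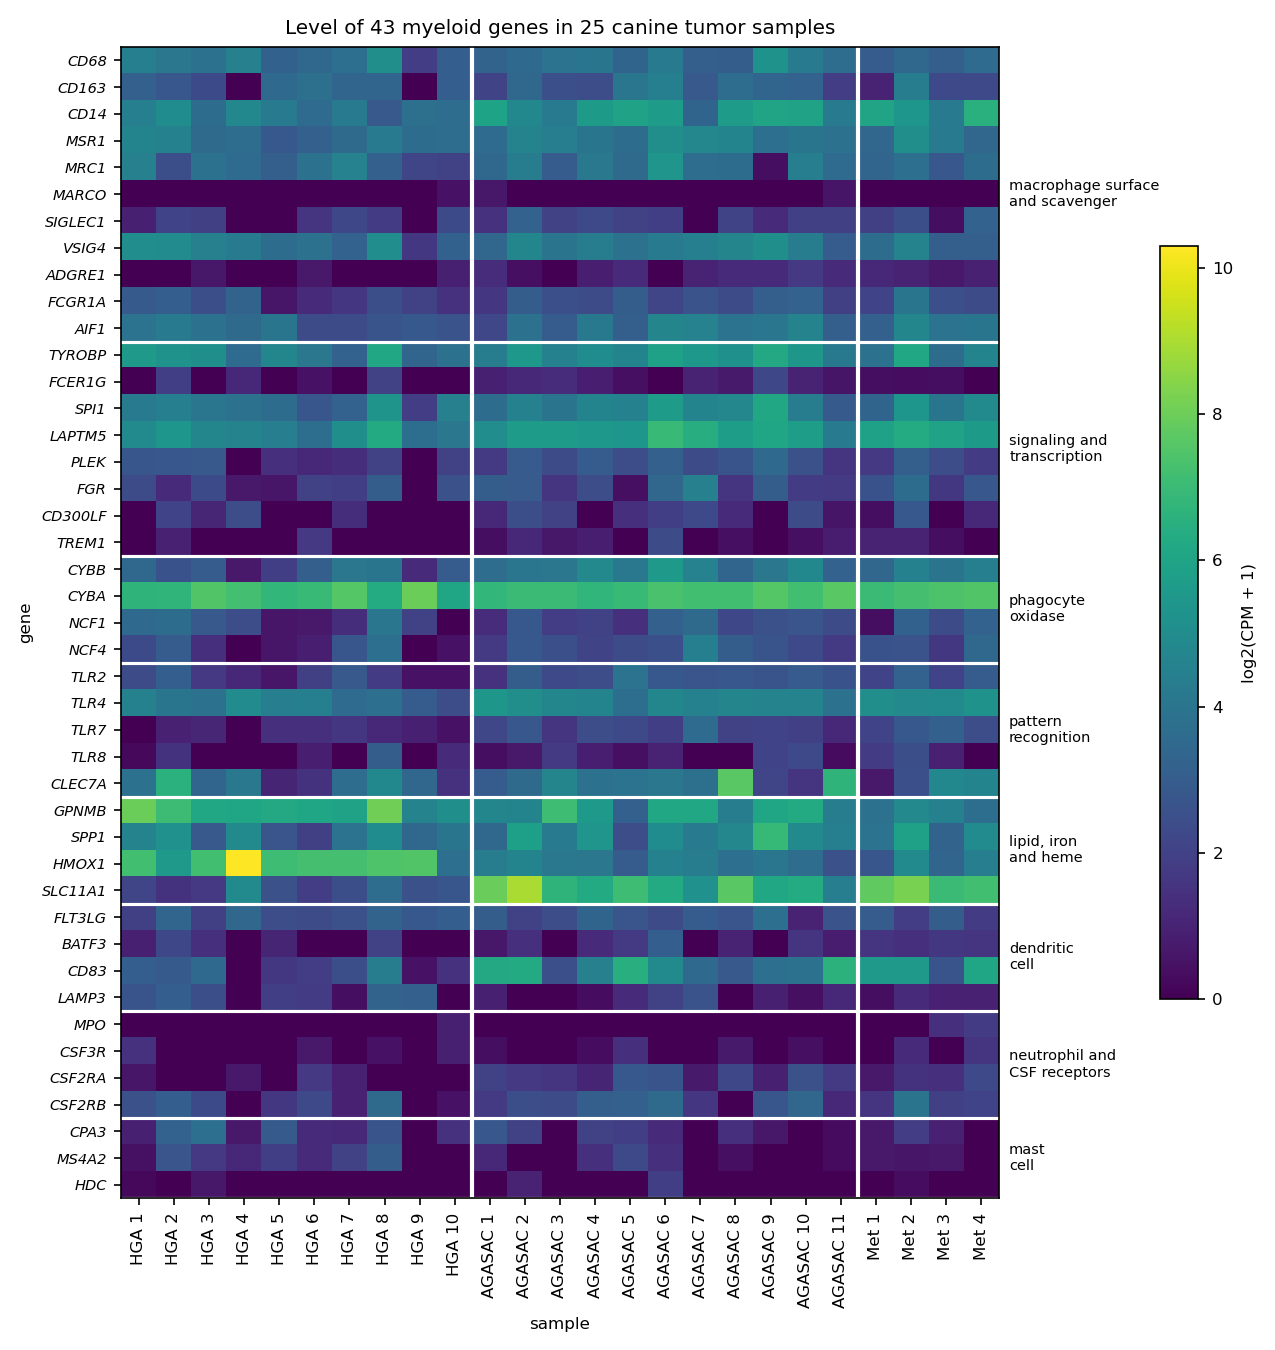
Level of each of the 43 members (rows, by role) in each of 25 samples (columns, by group), as log2(CPM + 1) on the color scale. The brightest cell is HMOX1 in HGA 4 at 1257 CPM; SLC11A1 and CD83 are brighter in the AGASAC columns, and the rows of MARCO, MPO and HDC are dark throughout.

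The first comparison asked which members differ between the benign and the malignant tumor. Of 12070 genes that passed the filter on low counts, 26 were members, and 4 of these were called. A call needed a p adjusted by the Benjamini-Yekutieli method of 0.05 or less together with a log2FC, HGA relative to AGASAC, at or beyond 1 in either direction. HMOX1 was higher in HGA, and SLC11A1, CD83 and CD14 were lower. Over all tested genes 25.1% were called, 12.6% higher and 12.5% lower in HGA, and the share called among the members, 4 of 26, lay below it. Of the tested members 21 had a negative and 5 a positive log2FC, with a median of −0.55 beside −0.03 over all tested genes. This median was −0.87 beside −0.33 with library size alone. It was −0.0119 beside 0.0156 within the 9 HGA and 3 primary tumors whose sequencing files share a naming series. The shift was thus not seen there, over 29 tested members. These primary tumors were AGASAC 1, 2 and 3, whose dogs also gave metastases. Among primary tumors with a known series, the series and this trait cannot be told apart. With extraction batch, sex or neuter status as a term the median of the members was −0.62, −0.70 and −0.50 beside −0.05, −0.04 and −0.03. Within extraction batches 5, 6 and 8 it was −0.53, −0.36 and −0.77 beside −0.07, −0.01 and −0.05. An unadjusted p under 0.05 was found for 9 members, 7 lower and 2 higher, and for 53.7% of all genes. None of the 26 members separated the groups without overlap, which 9.24% of all genes did.

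The second comparison set the 4 metastases against the primary tumors of the same dogs, in a main fit without a term for the dog. None of 29 tested members and none of 12629 tested genes was called by edgeR (0% called), and 1.15% of all genes and 1 member, GPNMB, had an unadjusted p under 0.05. DESeq2 called 5 genes and 0 members here, and the fit with the dog as a block called 1 gene and 0 members. The third comparison set HGA against the metastases and shares samples with both others. Here 29 members were among 13195 tested genes and 2 were called, SLC11A1 and CD14, both lower in HGA, beside 16.1% of all genes called, 8.4% higher and 7.69% lower in HGA. An unadjusted p under 0.05 was found for 7 members and 41.2% of all genes, and 1 member, SLC11A1, separated the groups without overlap, as did 16.2% of all genes.

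**Figure D2:**
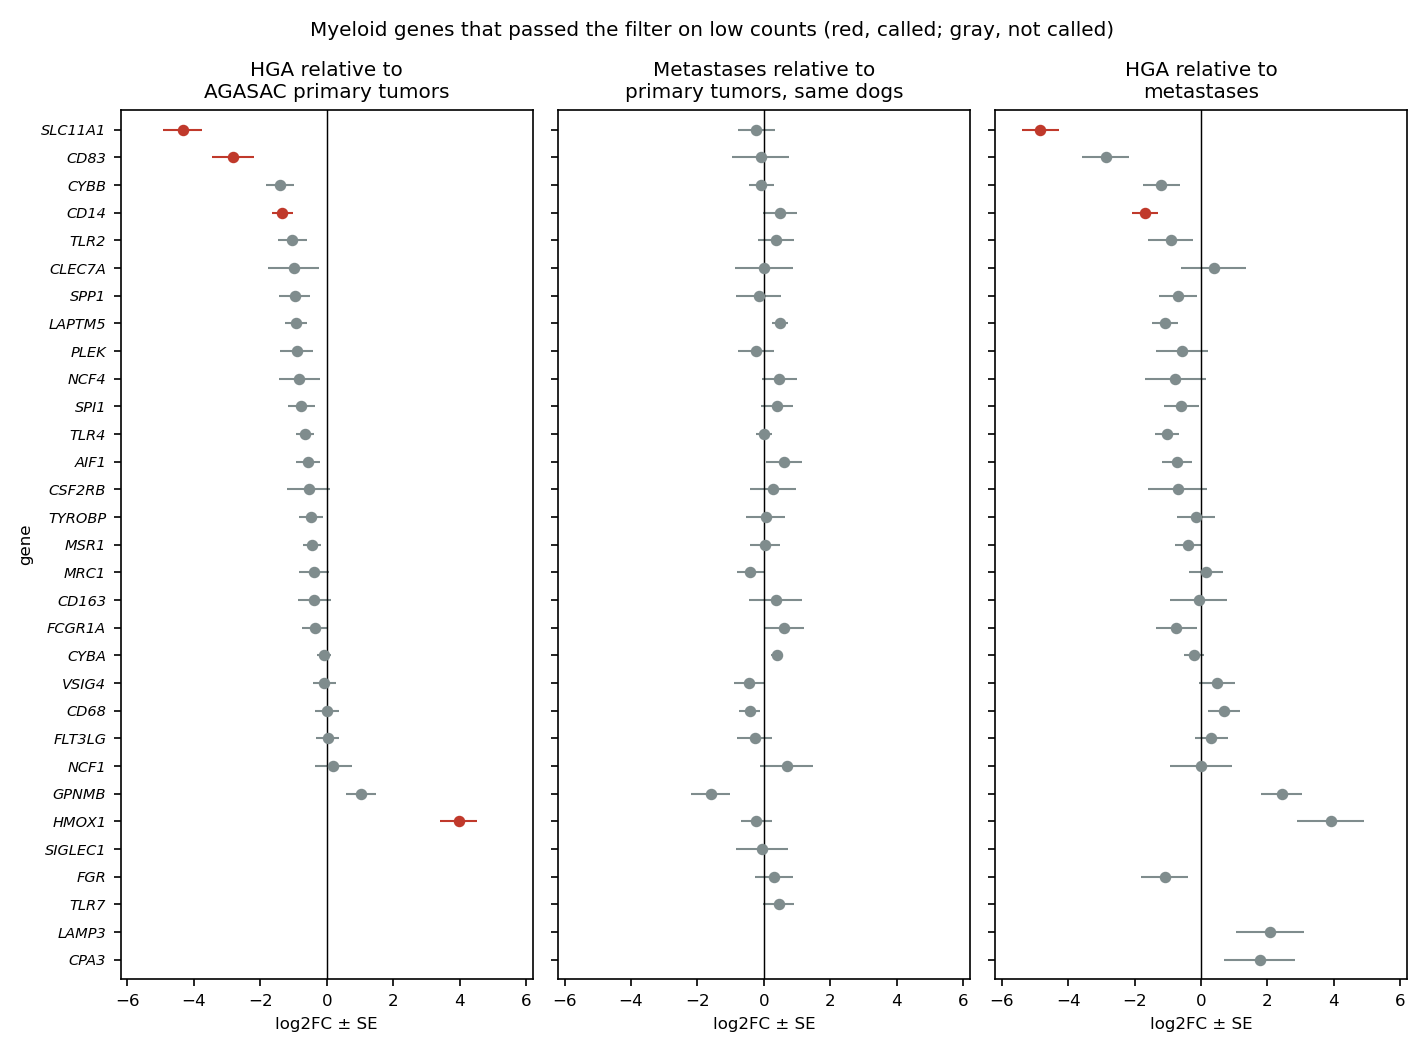
The log2FC with its SE for every member that passed the filter, in each of the 3 comparisons (panels), red where called and gray where not; a gap means that the gene did not pass there. SLC11A1 lies farthest to the left in both panels of HGA (−4.34 and −4.83) and HMOX1 farthest to the right (3.97 and 3.90), while the middle panel holds no red point.

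The largest differences lay among the genes for lipid, iron and heme. SLC11A1, the NRAMP metal transporter that withdraws divalent metals from the phagosome, had 1.85 to 29.5 CPM in HGA with a median of 4.68. In the primary tumors it had 19.9 to 507 CPM with a median of 79.3, and in metastases 1 to 4 it had 218, 301, 130 and 142 CPM. HGA 4 alone reached into the range of the primary tumors, whose lowest sample was AGASAC 11, and no HGA reached a metastasis. The log2FC was −4.34 ± 0.59 (SE) against the primary tumors, a 20.3-fold difference (edgeR, adjusted p = 1.81e-05), and −4.83 ± 0.55 against the metastases (edgeR, adjusted p = 5.87e-05).

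HMOX1, the heme oxygenase that breaks heme down to iron, biliverdin and carbon monoxide, went the other way. It had 12.7 to 1257 CPM in HGA with a median of 147, 4.80 to 24.4 CPM in the primary tumors with a median of 16.0, and 5.74, 28.99, 9.21 and 19.98 CPM in metastases 1 to 4. HGA 4 was the highest and HGA 10 the lowest of its group, and HGA 10 was the only one within the AGASAC range. The log2FC was 3.97 ± 0.55 against the primary tumors (edgeR, adjusted p = 2.75e-05), and 3.04 without HGA 4. Against the metastases it was 3.90 ± 1.00 and not called (edgeR, adjusted p = 0.0690), but the call was made without HGA 4 (log2FC 2.96, edgeR, adjusted p = 0.0183) and without HGA 10 (log2FC 4.02, edgeR, adjusted p = 0.0198).

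GPNMB, a lysosomal membrane glycoprotein of lipid-laden macrophages and of pigment cells, had 23.6 to 266 CPM in HGA, 7.91 to 138 CPM in the primary tumors, and 13.7, 27.9, 22.2 and 12.1 CPM in metastases 1 to 4. HGA 1 and HGA 8 were its highest samples. Its log2FC was 1.02 ± 0.45 for HGA relative to primary tumors, −1.61 ± 0.59 for metastases relative to primary tumors and 2.43 ± 0.62 for HGA relative to metastases, none of them called (edgeR, adjusted p = 0.675, 1 and 0.0619). Between HGA and metastases it was called without HGA 9 or without HGA 10 (edgeR, adjusted p = 0.0305 and 0.0360). SPP1, the secreted phosphoprotein osteopontin, had medians of 14.4, 25.9 and 22.2 CPM in HGA, primary tumors and metastases, with a log2FC of −0.97 ± 0.48 in the first comparison (edgeR, adjusted p = 0.980).

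Among the macrophage surface and scavenger genes 1 of 8 tested, CD14, was called in the first comparison, and the median log2FC of the 8 was −0.37. CD14, the co-receptor for bacterial lipopolysaccharide, had 6.31 to 30.9 CPM in HGA with a median of 15.3 and 9.03 to 63.9 CPM in the primary tumors with a median of 49.9. In metastases 1 to 4 it had 64.1, 41.4, 18.1 and 92.9 CPM. No HGA exceeded 30.9 CPM, and 7 of the 11 primary tumors lay above the highest HGA, while AGASAC 2, 3, 7 and 11 fell inside the HGA range. The log2FC was −1.33 ± 0.33 against the primary tumors (edgeR, adjusted p = 0.0183) and −1.69 ± 0.39 against the metastases (edgeR, adjusted p = 0.0313). The call against the metastases was lost when any of metastases 1, 2 and 4 or HGA 3, 5, 6, 7 and 9 was left out, with an adjusted p of up to 0.298 in edgeR.

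CD68, a lysosomal glycoprotein and the common macrophage marker, overlapped in all groups. It had 2.62 to 33.2 CPM in HGA with a median of 12.8, 7.31 to 37.7 CPM in the primary tumors with a median of 12.0, and 7.02, 10.0, 7.62 and 11.1 CPM in metastases 1 to 4. The log2FC was 0.02 ± 0.35 in the first comparison and changed sign with the scaling, −0.28 with library size alone, and it was 0.69 ± 0.49 between HGA and metastases (edgeR, adjusted p = 1 in both). HGA 8 and AGASAC 9 were the highest and HGA 9 the lowest.

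CD163, the scavenger receptor for hemoglobin bound to haptoglobin, had 0 to 13.1 CPM in HGA with a median of 7.67 and 0 counts in HGA 4 and HGA 9. It had 2.64 to 20.49 CPM in the primary tumors with a median of 8.39, and 0.957, 19.5, 3.81 and 3.81 CPM in metastases 1 to 4, so metastasis 2 stood above the other 3. The log2FC was −0.37 ± 0.51 in the first and −0.07 ± 0.85 in the third comparison, not called (edgeR, adjusted p = 1 in both). AIF1, the actin-binding protein known as IBA1, had medians of 8.39, 14.3 and 14.6 CPM in HGA, primary tumors and metastases. Its log2FC was −0.56 ± 0.36 in the first and −0.72 ± 0.45 in the third comparison, not called (edgeR, adjusted p = 1 in both).

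The other surface receptors overlapped widely. MSR1, the class A scavenger receptor, had 6.04 to 23.7 CPM in HGA and 11.1 to 32.8 CPM in the primary tumors (log2FC −0.45 ± 0.27), and MRC1, the mannose receptor, 3.06 to 22.4 and 0.288 to 40.3 CPM (log2FC −0.38 ± 0.46). VSIG4, a complement receptor of resident macrophages, had medians of 15.8 and 19.0 CPM (log2FC −0.07 ± 0.35), and FCGR1A, the high-affinity IgG receptor, 3.83 and 4.68 CPM (log2FC −0.35 ± 0.39). SIGLEC1, a sialic acid-binding receptor of lymph node and inflammatory macrophages, did not pass the filter in the first comparison. It had up to 3.93 CPM in HGA, up to 8.45 CPM in the primary tumors and 2.87, 4.48, 0.318 and 8.56 CPM in metastases 1 to 4. ADGRE1, an adhesion G protein-coupled receptor of macrophages, had 6 counts in total in HGA, where 7 of 10 libraries had 0, and 38 counts in the primary tumors, where 2 of 11 had 0. MARCO had 1 count in HGA, 4 in the primary tumors and 0 in the metastases.

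Summed over the 11 surface genes, the level was 41.9 to 148 CPM in HGA with a median of 94.0, 78.9 to 210 CPM in the primary tumors with a median of 144, and 118, 187, 80.6 and 165 CPM in metastases 1 to 4. The lowest sums were those of HGA 9, AGASAC 11 and metastasis 3, and the ranges overlap.

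**Figure D3:**
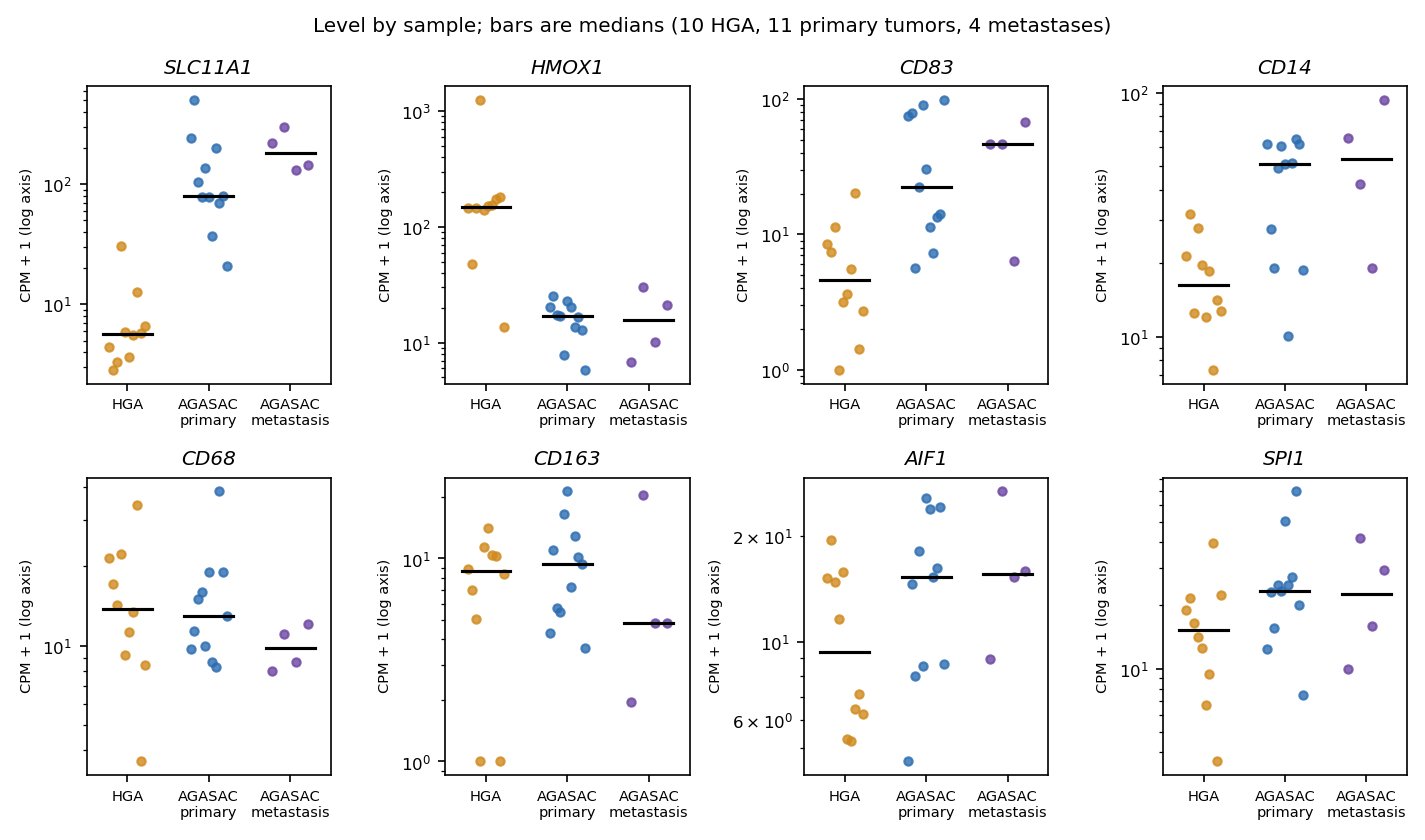
Level of the 4 called members (upper row) and of 4 macrophage anchor genes (lower row) in each sample, as CPM + 1 on a log axis, with a bar at the median of each group. HGA medians lie below both AGASAC groups for SLC11A1 (4.68 CPM), CD83 (3.61 CPM) and CD14 (15.3 CPM). They also do for AIF1 (8.39 CPM) and SPI1 (14.4 CPM). They lie above both for HMOX1 (147 CPM) and CD68 (12.8 CPM). HGA and the primary tumors overlap for every gene shown.

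Signaling and transcription genes had no call in the edgeR test with Benjamini-Yekutieli adjustment, though all 4 tested in the first comparison and all 5 in the third had a negative log2FC. SPI1, the transcription factor PU.1 of the myeloid lineage, had 2.62 to 38.7 CPM in HGA with a median of 14.4, 6.48 to 69.1 CPM in the primary tumors with a median of 22.3, and 8.93, 41.1, 14.9 and 28.5 CPM in metastases 1 to 4. Its log2FC was −0.76 ± 0.40 in the first and −0.60 ± 0.52 in the third comparison (edgeR, adjusted p = 1 in both). LAPTM5, a lysosomal membrane protein of leukocytes in general, had medians of 24.3, 49.7 and 58.7 CPM in HGA, primary tumors and metastases. Its log2FC was −0.94 ± 0.33 in the first comparison and not called (edgeR, adjusted p = 0.225), but −1.23 and called without HGA 8, which was its highest HGA at 76.9 CPM (edgeR, adjusted p = 0.0202).

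TYROBP, the ITAM adaptor of TREM and other receptors, had 8.49 to 68.5 CPM in HGA and 16.8 to 72.6 CPM in the primary tumors (log2FC −0.47 ± 0.36). PLEK, the kinase substrate pleckstrin, had 0 to 6.33 CPM in HGA and 1.92 to 10.4 CPM in the primary tumors (log2FC −0.91 ± 0.49). FGR, a Src-family kinase, had medians of 2.90, 4.42 and 5.57 CPM in HGA, primary tumors and metastases, and was tested only with the metastases. FCER1G, the common gamma chain of Fc receptors, had 17 counts in HGA, 39 in the primary tumors and 3 in the metastases, far below its partner adaptor TYROBP with 784, 1315 and 419 counts. CD300LF, an inhibitory receptor, had 21, 71 and 28 counts, and TREM1, an amplifying receptor of neutrophils and monocytes, 13, 27 and 8. HGA 8 had the highest sum of the 8 genes in its group at 197 CPM and HGA 9 the lowest at 24.01 CPM.

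The phagocyte oxidase, which makes superoxide in the phagosome, had no call in the edgeR test with Benjamini-Yekutieli adjustment. CYBB, its catalytic subunit, had 0.627 to 16.1 CPM in HGA with a median of 6.95, 8.40 to 45.1 CPM in the primary tumors with a median of 15.8, and 9.57, 22.1, 14.6 and 20.6 CPM in metastases 1 to 4. Its log2FC in the first comparison, −1.41 ± 0.41, was the closest of the uncalled members to the threshold (edgeR, adjusted p = 0.0678). It was called without HGA 7 (edgeR, adjusted p = 0.0316) and without HGA 8 (edgeR, adjusted p = 0.0374), the HGA with its highest levels. DESeq2 called it as well (log2FC −1.45, adjusted p = 0.0188), as did edgeR with Benjamini-Hochberg adjustment (adjusted p = 0.00679). CYBA, the membrane partner of CYBB and of other oxidases, had 65.1 to 253 CPM in HGA and 109 to 200 CPM in the primary tumors, and its log2FC was −0.09 ± 0.20. The cytosolic subunits NCF1 and NCF4 had log2FC of 0.20 ± 0.56 and −0.82 ± 0.61.

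Pattern recognition genes were called in no comparison by the main edgeR test with Benjamini-Yekutieli adjustment. TLR4, the receptor for lipopolysaccharide, had 4.37 to 30.1 CPM in HGA and 12.0 to 42.7 CPM in the primary tumors, with 33.2, 27.7, 28.3 and 36.8 CPM in metastases 1 to 4. Its log2FC was −0.65 ± 0.28 in the first and −1.02 ± 0.36 in the third comparison (edgeR, adjusted p = 0.583 and 0.423). With Benjamini-Hochberg adjustment TLR4 was called in the third comparison (edgeR, adjusted p = 0.0420). TLR2, the receptor for bacterial lipoproteins, had medians of 2.41, 5.56 and 5.08 CPM in HGA, primary tumors and metastases, with a log2FC of −1.04 ± 0.44 in the first comparison (edgeR, adjusted p = 0.574).

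CLEC7A, the beta-glucan receptor dectin, varied widely within groups. AGASAC 8 had 202 CPM and AGASAC 11 had 103 CPM, beside 1.94 to 24.9 CPM in the other 9 primary tumors. In HGA it was highest in HGA 2 at 94.6 CPM beside at most 27.3 CPM in the others, and in metastases 1 to 4 it had 0.638, 4.74, 27.0 and 24.1 CPM. The group difference was within this spread, with a log2FC of −0.99 ± 0.77.

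The endosomal receptors for single-stranded RNA were scarce. TLR7 had 0 to 2.12 CPM and 28 counts in HGA, 1.199 to 11.1 CPM and 138 counts in the primary tumors, and 3.19, 6.06, 7.94 and 4.44 CPM in metastases 1 to 4. It did not pass the filter in the first and the third comparison. DESeq2, run without that filter, called it there with a log2FC of −2.01 and −2.47 (adjusted p = 0.00795 and 0.0475), whereas edgeR without a filter did not (adjusted p = 0.119 and 0.380). TLR8 had 29 counts in HGA, 17 of them in HGA 8, 42 in the primary tumors and 28 in the metastases.

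Of the dendritic cell genes CD83, a surface protein of activated dendritic cells and B cells, was called in the first comparison. It had 0 to 19.3 CPM in HGA with a median of 3.61 and 4.68 to 97.9 CPM in the primary tumors with a median of 21.3. In metastases 1 to 4 it had 45.6, 45.1, 5.40 and 66.6 CPM, and metastasis 3 lay within the HGA range while the other 3 lay above it. The primary tumors were spread widely, with AGASAC 1, 2, 5 and 11 at 73.2, 77.0, 89.0 and 97.9 CPM and the other 7 at 4.68 to 29.4 CPM. The log2FC was −2.82 ± 0.65 in the first comparison (edgeR, adjusted p = 0.00923). In the third it was −2.87 ± 0.72 and not called (edgeR, adjusted p = 0.0558), but it was called without metastasis 3, without HGA 4 or without HGA 8.

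FLT3LG, the growth factor for dendritic cell precursors, had medians of 5.48, 5.50 and 4.83 CPM in HGA, primary tumors and metastases and a log2FC of 0.03 ± 0.35. LAMP3, a lysosomal protein of mature dendritic cells, had 111 counts in HGA, 41 in the primary tumors and 12 in the metastases. Its median was 3.68 CPM in HGA, 0.864 CPM in the primary tumors and 0.952 CPM in the metastases, and only the third comparison tested it (log2FC 2.08 ± 1.02, edgeR, adjusted p = 1). BATF3, a transcription factor of cross-presenting dendritic cells, had 0 counts in 5 of 10 HGA and in 3 of 11 primary tumors, while metastases 1 to 4 had 1.91, 1.58, 2.22 and 1.90 CPM. It passed the filter in no comparison, with edgeR without a filter giving a log2FC of −0.65 ± 0.95 in the first.

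The neutrophil members MPO and CSF3R were at the limit of detection. Other neutrophil genes differed, and the following 2 are named after their values were seen. S100A8 had medians of 10.7, 4.39 and 15.0 CPM in HGA, primary tumors and metastases, and CXCR1 a median of 0 CPM in each. MPO, the myeloperoxidase of neutrophil granules, had 0 counts in all 11 primary tumors and in 9 of 10 HGA, 2 counts in HGA 10, and 0, 0, 1.59 and 2.54 CPM in metastases 1 to 4. CSF3R, the receptor for the granulocyte growth factor, had 16 counts in HGA with 10 of them in 1 library, 10 counts in the primary tumors and 11 in the metastases. MPO and CSF3R passed the filter in no comparison. Without the filter neither was called in any comparison by edgeR or DESeq2, and MPO had an unadjusted p of 0.0391 between metastases and primary tumors and 0.0211 between HGA and metastases in edgeR (adjusted p = 1 and 0.900). CSF2RB, the shared beta chain of the GM-CSF receptor, had 103 counts in HGA, 180 in the primary tumors and 80 in the metastases (log2FC −0.55 ± 0.64 in the first comparison). CSF2RA, the alpha chain, had 0 counts in 6 of 10 HGA and a total of 18, but 103 counts and no library at 0 in the primary tumors. It did not pass the filter, and DESeq2 called it in the first comparison at a log2FC of −2.56 ± 0.70 (adjusted p = 0.0155), where edgeR without a filter gave −2.55 ± 0.75 (adjusted p = 0.109).

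Mast cell genes were low in every group. Counts of CPA3 were present in 9 and of MS4A2 in 8 of 10 HGA. CPA3, the granule carboxypeptidase, had 0 to 12.7 CPM in HGA with a median of 1.59 and 86 counts, 0 to 5.98 CPM and 60 counts in the primary tumors, and 0.638, 2.64, 0.952 and 0 CPM in metastases 1 to 4. The third comparison alone tested it, with a log2FC of 1.77 ± 1.06 (edgeR, adjusted p = 1). MS4A2, the beta chain of the high-affinity IgE receptor, had 59, 28 and 6 counts in HGA, primary tumors and metastases and passed the filter in no comparison. HDC, which makes histamine, had 2, 11 and 1 counts, and 8 of the 11 lay in AGASAC 6.

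**Figure D4:**
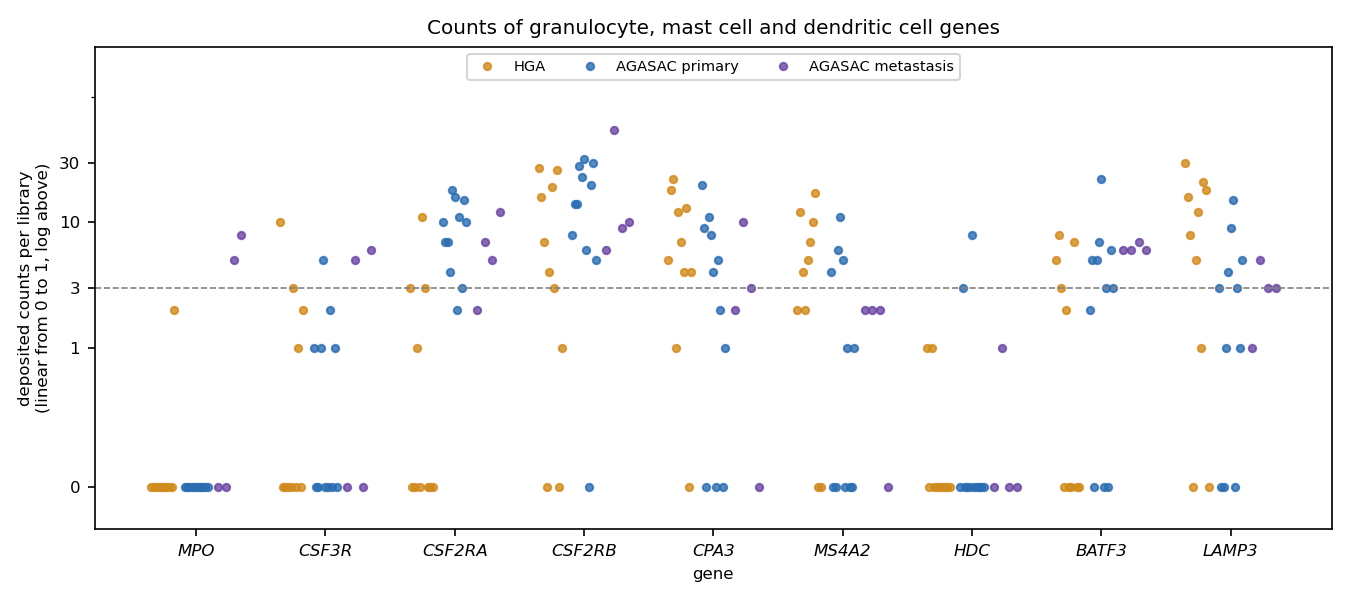
Deposited counts per library of 9 granulocyte, mast cell and dendritic cell members, with the groups side by side; the axis is linear from 0 to 1 and logarithmic above, and the dashed line marks 3 counts. Most libraries lie at 0 for MPO, CSF3R and HDC, and CSF2RA has 0 counts in 6 of 10 HGA and in none of the primary tumors.

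Within the 4 dogs, few members moved one way. Of the 29 tested members LAPTM5 and CYBA were higher in the metastasis of each of 4 dogs, and CD68 and MRC1 were lower in each. Matching signs in 4 dogs can arise by chance, and the share over all tested genes was not counted. LAPTM5 differed by 0.82, 0.67, 0.29 and 0.09 on the log2(CPM + 1) scale in dogs 1 to 4 and CYBA by 0.19, 0.22, 0.40 and 0.71. CD68 differed by −0.27, −0.05, −0.80 and −0.40 and MRC1 by −0.08, −0.56, −0.19 and −0.48. None was called, with a log2FC of 0.49 ± 0.23 for LAPTM5, 0.39 ± 0.18 for CYBA, −0.42 ± 0.31 for CD68 and −0.41 ± 0.40 for MRC1. Every log2FC and SE in this paragraph is from the main fit, which does not pair the samples by dog. Beside LAPTM5, a gene of leukocytes in general, 8 of 9 tested pan-leukocyte genes had a positive log2FC with a median of 0.60, and all 7 tested T cell markers did with a median of 0.56. Of these none was called, and CD3G, CD3E and CD8A, named after their values were seen, had log2FC of 1.47 ± 0.42, 1.18 ± 0.36 and 1.98 ± 0.72. Their part in the difference of LAPTM5 was not tested. The anchors CD163, AIF1 and SPI1 had log2FC of 0.35 ± 0.81, 0.61 ± 0.53 and 0.38 ± 0.48 (edgeR, adjusted p = 1 in each). SLC11A1, HMOX1, CD83 and CD14, which differed from HGA, had log2FC of −0.22 ± 0.57, −0.23 ± 0.48, −0.10 ± 0.85 and 0.49 ± 0.52 between metastases and primary tumors.

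**Figure D5:**
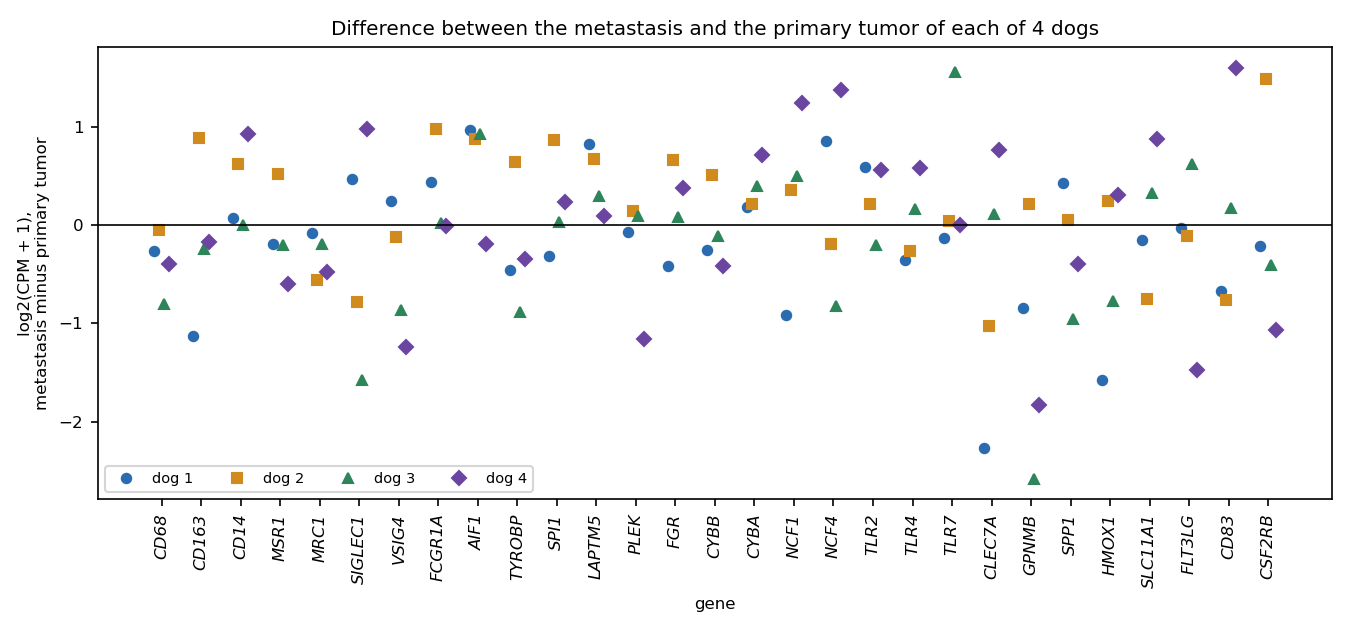
Difference in log2(CPM + 1) between the metastasis and the primary tumor of each of 4 dogs (symbols) for the 29 members tested between these groups. All 4 symbols lie above 0 for LAPTM5 and CYBA and below 0 for CD68 and MRC1, and they straddle 0 for the other 25 members.

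Other genes of the same cell types were listed beside the members, and their calls are to be read against the 25.1% of all genes called in the first and the 16.1% in the third comparison. Of 14 tested macrophage and monocyte genes 3 were called in the first comparison, which are named here after their values were seen. FOLR2, a folate receptor of resident macrophages, had 7.86 to 29.7 CPM in HGA and 38.4 to 253 CPM in the primary tumors (log2FC −2.72 ± 0.34, edgeR, adjusted p = 5.89e-06). ITGAM, the integrin alpha chain CD11b of myeloid cells, had 0 to 4.67 CPM in HGA and 0 to 164 CPM in the primary tumors (log2FC −4.77 ± 0.91, edgeR, adjusted p = 0.00138). MERTK, a receptor for the uptake of apoptotic cells, had 2.77 to 33.2 CPM in HGA and 0 to 4.98 CPM in the primary tumors (log2FC 2.39 ± 0.50, edgeR, adjusted p = 0.00358). CSF1R, the receptor of the macrophage growth factor, had medians of 27.9, 45.8 and 30.3 CPM in HGA, primary tumors and metastases and was not called (log2FC −0.31 ± 0.34 in the first comparison). In the third comparison 1 of 16 was called, FOLR2 (log2FC −2.56 ± 0.38, edgeR, adjusted p = 0.000836).

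Of the growth factors for myeloid cells all 5 tested had a negative log2FC in the first comparison, and 3 of them were called lower in HGA. CSF1, the macrophage growth factor, had a log2FC of −1.59 ± 0.37 (edgeR, adjusted p = 0.0103), CCL2, the monocyte chemokine, of −1.74 ± 0.41 (edgeR, adjusted p = 0.0128), and TGFB1 of −2.06 ± 0.48 (edgeR, adjusted p = 0.0115). In the third comparison 2 of 5 were called, both lower in HGA, CCL2 (log2FC −2.23 ± 0.45, edgeR, adjusted p = 0.0121) and TGFB1 (log2FC −2.43 ± 0.59, edgeR, adjusted p = 0.0467). Of 5 tested neutrophil genes 2 were called in the first comparison, and in opposite directions. LTF, the secreted lactoferrin of neutrophil granules and glandular epithelium, had 0 to 15.6 CPM in HGA and 0.997 to 735 CPM in the primary tumors (log2FC −6.03 ± 1.12, edgeR, adjusted p = 0.00102), while ALPL, an alkaline phosphatase of neutrophils, bone and other tissues, had 30.8 to 449 CPM in HGA and 0 to 6.62 CPM in the primary tumors (log2FC 5.70 ± 0.68, edgeR, adjusted p = 2.85e-06). In the third comparison 3 of 10 neutrophil genes were called, LTF lower and ALPL and VNN1 higher in HGA. None of 5 dendritic and 2 mast cell genes tested in the first comparison was called, nor any of 8 and 3 in the third.

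Markers of other cells moved with some of these results, and their part in them was not tested. The 10 pan-leukocyte genes summed to 73.1 to 403 CPM in HGA, 101.2 to 677 CPM in the primary tumors and 271 to 414 CPM in the metastases. All 8 of them tested in the first comparison had a negative log2FC, with a median of −1.12 and 0 called. The T cell markers summed to 2.46 to 66.8, 18.0 to 135 and 51.4 to 80.3 CPM and the B cell markers to 6.90 to 77.8, 23.6 to 59.1 and 39.4 to 66.4 CPM in these groups. Only 2 genes of each list were tested in the first comparison, and none of these was called. In the third, CD3G was called lower in HGA, 1 of 7 tested T cell markers, and none of 5 B cell markers was. CD3G was not tested in the first. The fibroblast markers had a median log2FC of 0.06 with 0 of 8 called, and of the endothelial markers CDH5 was higher in HGA in the first comparison, 1 of 5 tested, and VWF in the third, 1 of 6. Of the lymph node stroma markers CCL21 was called higher in HGA in both, 1 of 1 tested in the first and 1 of 2 in the third. The skeletal muscle markers summed to at most 11.8 CPM in HGA and 4.08 to 838 CPM in the primary tumors. ACTA1, the only one tested in the first comparison, was called lower in HGA. The plasma cell list summed to 28.2 to 158 CPM in HGA and 309 to 857 CPM in the primary tumors, mostly from XBP1. XBP1, a transcription factor of secretory cells in general, was called lower in HGA in both comparisons, 1 of 2 tested in each.

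Dogs' neuter status was unevenly divided between the tumors. Sequencing files of the same naming series came from 9 HGA but 3 of the 10 primary tumors with a known series. RNA extraction batches were nearer to even, though batch 4 held 2 primary tumors and no HGA, and batch 9 held 1 HGA and no primary tumor. With the extraction batch as a term, SLC11A1 and HMOX1 were called at log2FC of −4.32 and 3.61 and CD14 and CD83 were not (log2FC −1.36 and −1.79, edgeR, adjusted p = 0.0670 and 0.550). With neuter status as a term, CD83 alone was lost (log2FC −2.26, edgeR, adjusted p = 0.0765), and the log2FC of HMOX1 was 3.20. Within batches 5, 6 and 8, which held 3 HGA and 3 AGASAC, 3 and 2, and 2 and 3, the log2FC of SLC11A1 was −2.22, −4.51 and −6.34, of HMOX1 4.94, 2.53 and 3.20, of CD83 −0.49, −2.17 and −4.46, and of CD14 −1.02, −1.06 and −1.76. Each thus had its sign in all 3 batches, while the size for CD83 ranged from near 0 upward. Within the naming series held by 9 HGA and 3 primary tumors, SLC11A1 was called (log2FC −5.34), and HMOX1, CD83 and CD14 had log2FC of 3.74, −3.10 and −1.02 and were not.

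Whether pairs of members vary together was tested on log2(CPM + 1) for 3 pairs within each tumor type, 6 relations in all, with permutation tests (two-sided) and Benjamini-Hochberg adjustment. CPA3 and MS4A2 had r = 0.70 and rho = 0.60 over 10 HGA (permutation p = 0.0289 and 0.0755, adjusted 0.101 and 0.226) and r = 0.64 and rho = 0.61 over 11 primary tumors (permutation p = 0.0337 and 0.0543, adjusted 0.101 and 0.226). With the 2 most distant samples on the CPA3 axis left out, r was 0.71 and 0.61. Both genes had few counts, at most 22 in a library of HGA. TYROBP and FCER1G had r = 0.46 and rho = 0.41 in HGA (permutation p = 0.181 and 0.240, adjusted 0.271 and 0.288) and r = 0.33 and rho = 0.28 in the primary tumors (permutation p = 0.342 and 0.403, adjusted 0.410 and 0.403). Without the 2 samples farthest on the TYROBP axis r was 0.36 and −0.32, so in the primary tumors the sign of r changed. CD163 and MSR1 had r = −0.02 and rho = −0.46 in HGA (permutation p = 0.957 and 0.188, adjusted 0.957 and 0.288) and r = 0.44 and rho = 0.39 in the primary tumors (permutation p = 0.173 and 0.238, adjusted 0.271 and 0.288), with r = −0.38 and 0.09 once the 2 most distant were left out. None of the 6 relations passed the adjustment.

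The difference between the tumors was also tested for a dependence on sex. None of 12070 genes and none of 26 members was called for the interaction of tumor type and sex by edgeR, while 1058 genes and 6 members had an unadjusted p under 0.05. The smallest p of the members was that of TYROBP (edgeR, p = 0.000625, adjusted p = 1), named here after its value was seen. It had 25.3 to 68.5 CPM in the 5 HGA of females and 8.49 to 16.0 CPM in the 5 HGA of males, without overlap, and 18.8 to 59.1 CPM in the 5 primary tumors of females and 16.8 to 72.6 CPM in the 6 of males. Among HGA, extraction batch 6 held only females and batch 8 only males. With the extraction batch as a term the unadjusted interaction p of TYROBP was 0.00488 (edgeR).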

How the data were processed

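Total RNA of 25 canine FFPE tumors was sequenced with QuantSeq 3′. The authors trimmed reads with cutadapt, aligned them to CanFam3.1 with STAR and counted them with featureCounts in 2 rounds, the second with annotation extended by 2 kb at the 3′ end; tool versions are not given in the sources used here. They split multi-mapped reads evenly and deposited whole counts per gene, which were used here. The same deposited table holds a signal (counts divided by a size factor, with its mean) and the authors' log2 fold changes, SE and p-values of their comparison, not used; 0 columns of per-sample values remained unmapped.

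Counts were tested in R 4.3.3 with edgeR 4.0.16 (quasi-likelihood test, TMM, filterByExpr with minimum count 10 and minimum total 15), on 21 primary tumors, on 4 metastases and the primary tumors of their dogs, and on HGA and metastases, and adjusted by Benjamini-Yekutieli over all tested genes. SE is the log2FC divided by the root of F. CPM use TMM factors over all 25 samples. Correlations used 100000 resamples and a pseudocount of 1. Scripts were tested on simulated data. Alternatives were RLE, library size alone, other filters, DESeq2 1.42.0 without shrinkage, Benjamini-Hochberg, 1 fit of all samples, all 15 AGASAC, batch, sex and neuter terms, within-batch fits and leaving out each sample. By the labels, metastases 1 to 4 share their animals with AGASAC 1 to 4, and deviations of each such pair from the group means correlated at 0.426 to 0.729 in 4 of 4 dogs. Each sample is a separate tumor, and no pair of libraries agreed within sampling noise (chi-square per degree of freedom at least 12.2).

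Members and lists were chosen with earlier results of these data known. Every member found was named. Full statistics went to called members and to the anchors CD68, CD163, AIF1, SPI1, CSF3R, MPO, CPA3, MS4A2 and BATF3. Of 15 other lists, called genes were named, at most 6 per comparison by size of log2FC. Those named beyond this rule, for counts of 5 or fewer or beside a list, were chosen after their values were seen. No sequences or coordinates are given, since the reference at hand is of another assembly.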

Additional observations from a re-analysis of the deposited data

Results flagged for a closer look

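In groups of 4 to 10 samples, a value far from the rest (Dixon's 95% limit on log2(CPM + 1)) was found for TLR8 in HGA 8 and for CD83 in metastasis 3. TLR8 had 7.15 CPM (17 counts) in HGA 8, with the next HGA at 1.85 CPM. CD83 had 5.40 CPM (17 counts) in metastasis 3, with the next metastasis at 45.1 CPM. These were 2 of 78 groups of values looked at, and chance alone gives such a value in about 1 of 20 groups, so the 2 are no more than chance gives.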

How the results depend on the processing

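The 4 members called between HGA and primary tumors were 2 with at least 10 counts in every sample (HMOX1 and CD14, as SLC11A1 and CD83 were then not tested), 7 with DESeq2 (adding CYBB, TLR7 and CSF2RA), 7 with 1 fit of all 25 samples, 2 with extraction batch as a term, 0, 1 and 2 within batches 5, 6 and 8, and 1 within the naming series of 9 HGA and 3 primary tumors; leaving out 1 tumor gave 4 to 6. With library size alone the median log2FC of all genes moved from −0.03 to −0.33, and CYBB and LAPTM5 were called as well. Between HGA and metastases the 2 called were 6 with DESeq2, 7 with Benjamini-Hochberg, 5 with 1 fit of all samples and 4 without both HGA 4 and HGA 10, a choice made after seeing the data, and leaving out 1 sample gave 1 to 4. Between metastases and primary tumors every fit called 0 members, also without any 1 sample (0 to 0), and the sex interaction called 0 in each of its 3 fits. The fit of all 25 samples had no term for the dog, although dogs 1 to 4 each entered it with a primary tumor and a metastasis.

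HGA and AGASAC share sample numbers of different dogs. With the number as a replicate block, 2 members were called against the primary tumors (SLC11A1 and HMOX1) and 0 against the metastases. Their deviations correlated at −0.04 to 0.04 in 10 pairs and at −0.10 to 0.06 in 4, with 0 and 1 of them best with its own number, so the numbers do not pair the samples. The block of the same dogs changed no call of a member.

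No called member changed sign. Among uncalled anchors, CD68 between HGA and primary tumors was −0.0198 with RLE, −0.28 with library size alone, −0.0397 without a filter, −0.0205 with DESeq2, −0.0092 with sex as a term, and −0.10 and −0.12 within batches 5 and 6, and CD163 was 0.24 within batch 8 and 0.16 and AIF1 0.32 within the naming series. Between metastases and primary tumors, CD163 was −0.31 with 1 fit of all samples, −0.13 with the replicate block and −0.30 with all 11 primary tumors, and SPI1 −0.16 and −0.17 in the first and last of these. CD163 between HGA and metastases was 0.0714 without HGA 4 and 10. Leaving out 1 sample, CD68 ranged from −0.21 to 0.27 between HGA and primary tumors, CD163 from −0.96 to 0.80 and SPI1 from −0.0493 to 0.66 between metastases and primary tumors, and CD163 from −0.43 to 1.22 and CD14 from −1.98 to −1.29 between HGA and metastases. The r of TYROBP and FCER1G in primary tumors was −0.32 without the 2 farthest samples. The cause of these changes was not tested. The neutrophil and mast cell members mostly had under 10 counts in a library, and whether depth accounts for this was not tested.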
